A study of Homo sapiens with 47 samples.

Results

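The FHL2 locus on human chromosome 2 was described in ChIP-seq libraries of cells in which dCas9 activators had been directed to estrogen receptor binding sites (ERBSs). Its members were all rows of the deposited signal table inside chr2:105960000-106160000 (hg19), which are 6 of the 23 regions of the table, and the 76 peaks that 47 peak lists placed in that window, of 959683 peaks in all. The 6 regions are the ERBSs FHL2-1, FHL2-2 and FHL2-3, the adjacent regions FHL2-A and FHL2-B, which are not ERBSs, and the promoter FHL2-p.

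The study asked whether activators held at ERBSs are sufficient to act on genes that normally respond to estrogens. Ishikawa cells, a human endometrial adenocarcinoma line, grew in medium depleted of hormones and were transfected with plasmids for an activator, dCas9-VP16(10x) or else dCas9-p300(core), and for pooled gRNAs, 4 per site. Antibodies against the HA tag of dCas9, H3K27ac and RNA polymerase II (RNAPII) gave 47 libraries in 24 groups. For H3K27ac and for RNAPII, each construct was measured with gRNA Pool 1, Pool 2, Pool 3, the Adjacent pool and gRNAs for the IL1RN promoter, with 2 libraries per group. The HA data hold 4 groups. With dCas9-VP16(10x) there are 2 columns for gRNAs to all ERBSs, 2 libraries for the adjacent regions and 1 library for IL1RN, while dCas9-p300(core) has 2 libraries, both with the ERBS gRNAs. All cells were the parental line without added estrogen and were selected for both plasmids, and the libraries labelled IL1RN served as the controls of the FHL2 regions because they carry an activator but no gRNA for this locus. The labels say that 1 H3K27ac library, dCas9-VP16(10x) Adjacent replicate 1, also carried IL1RN gRNAs. By the labels, none of the pools measured by ChIP-seq held gRNAs for the FHL2 promoter. The labels do not say whether libraries of a group came from separate cultures, so p-values measure the spread between these libraries, which may be technical.

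FHL2 encodes a LIM-domain protein without known DNA binding of its own that acts as a cofactor of several transcription factors, and the gene responds to estrogens in endometrial cells. The dCas9 fusions bring an activator to a site chosen by the gRNA. VP16 is a viral transactivation domain that recruits the transcription machinery and coactivators, whereas the core of p300 is a histone acetyltransferase that deposits H3K27ac itself, a mark found at active enhancers and promoters.

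FHL2 (ENSG00000115641) lies on the minus strand at chr2:105974169-106054970 and has 12 annotated transcripts in GENCODE on hg19. Distances were taken from the start of its canonical transcript at position 106015508, with negative values inside the gene. FHL2-B (chr2:106005973-106007973) was centred at -8.54 kb, where 10 transcripts have intron and 2 have exon sequence. FHL2-p (chr2:106014299-106016299) holds the start site itself. FHL2-1 (chr2:106019419-106021419) was centred 4.91 kb upstream, FHL2-2 (chr2:106025380-106027380) 10.9 kb upstream and FHL2-A (chr2:106028432-106030432) 13.9 kb upstream, and all 3 are intronic in the 2 transcripts that start farther upstream. FHL2-3 (chr2:106138390-106140390) was intergenic, 124 kb upstream.

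The segments that span the gRNA targets of the 3 ERBSs are printed because the signals below are read around them. Each is the plus strand of hg19, with the 4 gRNA targets and their PAMs in capitals.
FHL2-1, chr2:106020531-106020829: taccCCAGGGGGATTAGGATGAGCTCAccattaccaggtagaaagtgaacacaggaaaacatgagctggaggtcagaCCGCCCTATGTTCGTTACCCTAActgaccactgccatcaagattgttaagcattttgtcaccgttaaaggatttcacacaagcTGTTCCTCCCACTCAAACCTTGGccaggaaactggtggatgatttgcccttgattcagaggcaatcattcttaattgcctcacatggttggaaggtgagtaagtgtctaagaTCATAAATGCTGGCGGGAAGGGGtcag
FHL2-2, chr2:106026231-106026498: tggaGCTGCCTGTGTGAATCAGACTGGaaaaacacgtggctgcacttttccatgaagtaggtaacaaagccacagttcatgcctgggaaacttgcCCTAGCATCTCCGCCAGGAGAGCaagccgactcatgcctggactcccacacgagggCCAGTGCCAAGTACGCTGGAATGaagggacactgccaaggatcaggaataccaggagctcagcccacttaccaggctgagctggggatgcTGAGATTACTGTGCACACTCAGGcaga
FHL2-3, chr2:106139174-106139469: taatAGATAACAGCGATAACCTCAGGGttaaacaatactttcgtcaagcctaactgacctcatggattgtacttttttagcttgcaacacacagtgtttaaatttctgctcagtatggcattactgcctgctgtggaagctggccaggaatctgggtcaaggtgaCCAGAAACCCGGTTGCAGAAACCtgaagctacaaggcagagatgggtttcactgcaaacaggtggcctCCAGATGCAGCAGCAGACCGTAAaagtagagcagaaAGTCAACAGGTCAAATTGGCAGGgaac

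The estrogen response element, the palindrome that estrogen receptor binds, was searched on both strands as GGTCA, any 3 bases and TGACC. An exact match was found in 2 of the 23 regions, FHL2-3 and CISH-1, and in 0.154% of 119081 tiles of the same length on chromosome 2. The match in FHL2-3 lay 44.5 bp from the centre of its gRNA targets and is shown here in capitals.
FHL2-3, chr2:106139304-106139363: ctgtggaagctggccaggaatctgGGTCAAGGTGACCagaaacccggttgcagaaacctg
Among the other members, FHL2-2 came closest with 1 mismatch, and FHL2-1, FHL2-p and FHL2-A had 2 and FHL2-B 3 mismatches at best. The AP-1 motif TGANTCA occurred in FHL2-1, FHL2-2, FHL2-3 and FHL2-p but not in FHL2-A or FHL2-B, and in 48.4% of tiles, so its presence in 12 of the 23 regions is a description only.

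All 24 gRNAs designed for the locus, 4 per region and including 4 for the promoter, matched the genome exactly at 1 place, with an NGG PAM, and that place was in the region they are named for. The targets of a region spanned 215 to 404 bp. For the adjacent regions, a gRNA that lies beside a dCas9 summit is given, with the PAM in capitals.
FHL2-A, chr2:106029172-106029194, plus strand: ggcagcgtcaaggaaggatgAGG
FHL2-B, chr2:106006822-106006844, plus strand: cagtgataccagctcccagcAGG

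The labels list FHL2-2 in Pool 1, FHL2-3 in Pool 2 and FHL2-1 in Pool 3, but the H3K27ac signal of the 3 ERBSs was highest with other pools (below). Every pool was therefore tested at every region, and values are given for each pool. Which list of sites the pools held was not resolved here.

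The libraries carried the marks of the labelled cells. All 20 H3K27ac and all 20 RNAPII libraries had a peak within 1000 bp of a start site of KRT8 and KRT18 (epithelial keratins), PAX8 and EMX2 (Mullerian transcription factors) and ESR1 (the estrogen receptor), whereas PTPRC and CD3E, which mark leukocytes, had none, and COL1A2, a fibroblast collagen, had 1 H3K27ac peak. The other epithelial and Mullerian markers, EPCAM, CDH1 and SOX17, had RNAPII peaks in 20 of 20 libraries and H3K27ac peaks in 17, 11 and 12. Of all protein-coding genes, a median of 50.1% per list had an H3K27ac peak and 61.6% an RNAPII peak at a start site. A peak at a single marker therefore says little by itself. An RNAPII library had 819 to 3472 reads in the 23 regions, an HA column 468 to 38238 and an H3K27ac library 348 to 6999. The highest HA value is from the column that kept duplicates, and with duplicates removed the highest was 11322. Peak lists held 16041 to 40757 peaks (RNAPII), 141 to 30740 (HA) and 1805 to 32052 (H3K27ac), so that the absence of a peak in a short list says less than in a long one.

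**Figure D1:**
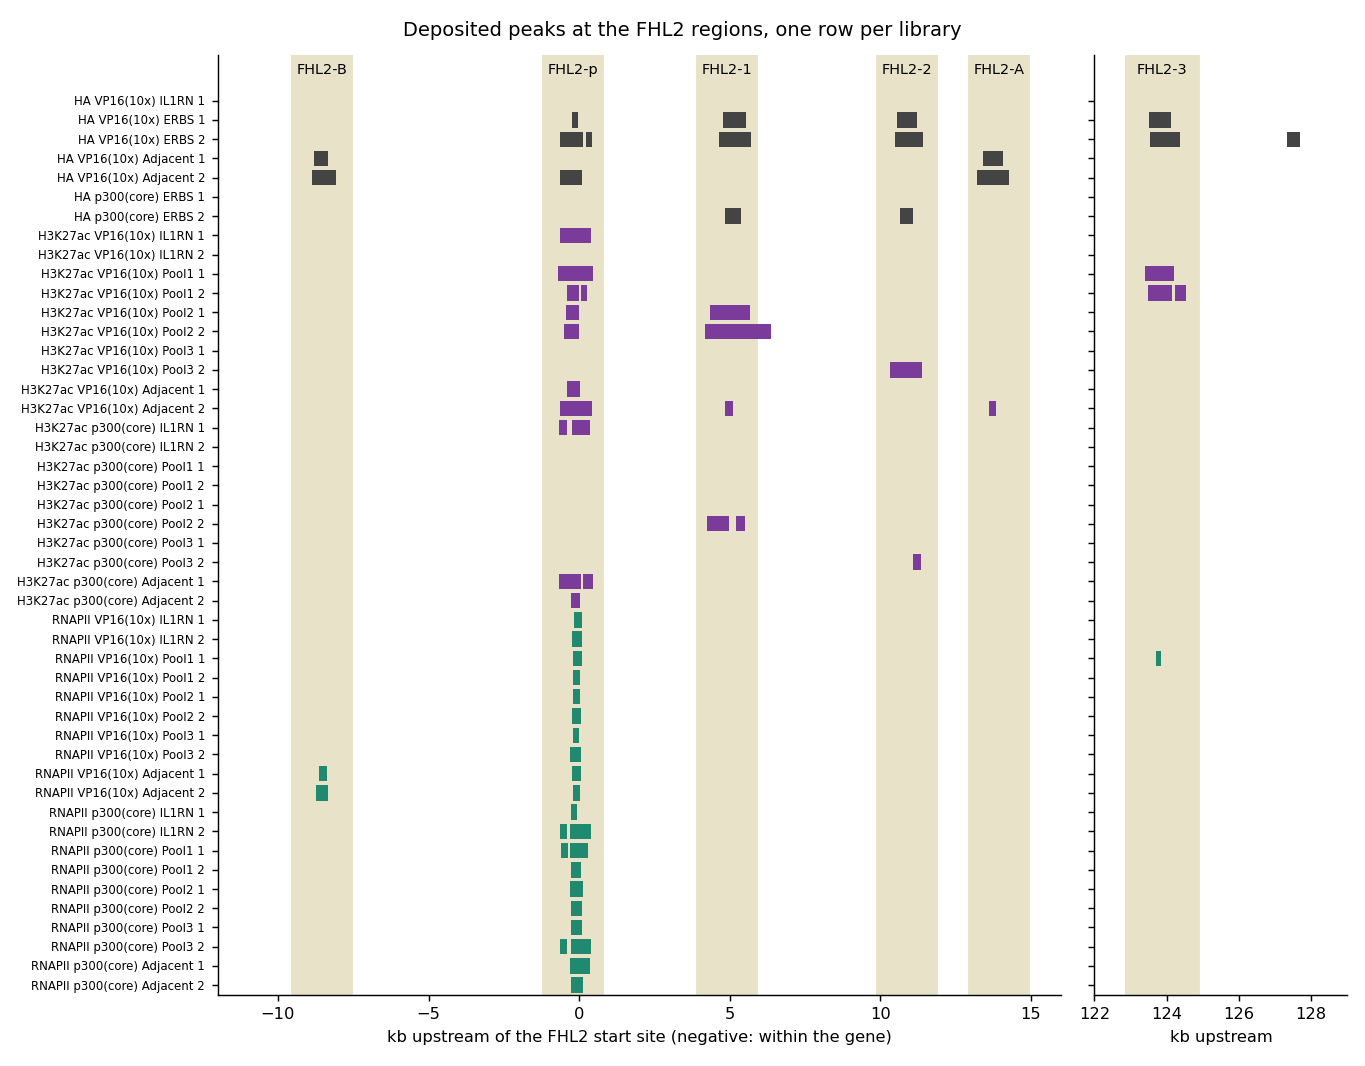
Each row is 1 library and each bar is a deposited peak, against distance in kb from the FHL2 start site, with the 6 regions shaded and FHL2-3 on the axis at the right. RNAPII peaks stand at FHL2-p in all 20 libraries, while the other regions have peaks in few libraries of each antibody.

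HA marked where the dCas9 fusions sat, and each of the 3 ERBSs carried more HA signal with the ERBS gRNAs than with IL1RN gRNAs. At FHL2-1, the normalized signal with dCas9-VP16(10x) and ERBS gRNAs was 12.4 in the column that kept duplicate reads and 7.97 in the column that removed them, and with dCas9-p300(core) it was 5.53 and 15.0. The same region had 0.558 with IL1RN gRNAs and 0.498 and 0.339 with adjacent gRNAs, so the groups were far apart. The change against IL1RN was 4.02 ± 0.89 on the log2 scale (SE) for dCas9-VP16(10x) (limma, adjusted p = 0.0258) and 3.86 ± 0.77 for dCas9-p300(core) (adjusted p = 0.0181). The dCas9-VP16(10x) ERBS columns count as 1 sample and IL1RN has 1 library, so for that construct the SE and p borrow the spread of the Adjacent and dCas9-p300(core) pairs (2 residual degrees of freedom) and hold no replicate check of their own. The HA changes of dCas9-p300(core) are set against the IL1RN library of dCas9-VP16(10x), at this and every other region. Construct and gRNAs therefore cannot be told apart in them. As in any bulk assay, the share of cells with dCas9 at the site and the amount bound per cell cannot be told apart.

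FHL2-2 behaved like FHL2-1. With ERBS gRNAs it had 12.2 and 7.15 for dCas9-VP16(10x) and 4.21 and 9.46 for dCas9-p300(core), against 0.330 with IL1RN gRNAs and 0.450 and 0.265 with adjacent gRNAs. In limma the change was 4.59 ± 0.82 (adjusted p = 0.0147) and 3.98 ± 0.71 (adjusted p = 0.0147). FHL2-3, the distant ERBS, had the lowest dCas9-VP16(10x) signal of the 3, at 2.66 and 2.55, but 6.32 and 4.64 with dCas9-p300(core), against 0.279 with IL1RN gRNAs. The rise with dCas9-p300(core) passed the test (3.96 ± 0.75, adjusted p = 0.0173), and that with dCas9-VP16(10x) did not (2.92 ± 0.86, adjusted p = 0.0554). The dCas9-p300(core) values rest on 24 and 26 reads, so the test does not rank the occupancy of the constructs. The dCas9-VP16(10x) rise did pass in limma with the pseudocount 10 times larger (1.71). It also passed with the replicate block (3.82), but there the ERBS sample and the IL1RN library stand in different blocks. The block is then estimated from other groups alone and enters the change. A pass with both columns as replicates counts 1 sample as 2. With either dCas9-p300(core) library left out, the change stayed at 2.92. The difference between the constructs was not tested for HA, because the IL1RN library of dCas9-VP16(10x) is the control of both.

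The adjacent regions were occupied with their own gRNAs. FHL2-A had 5.81 and 6.54 with dCas9-VP16(10x) and adjacent gRNAs, 0.305 with IL1RN gRNAs and 0.255 and 0.235 with ERBS gRNAs, a rise of 4.04 ± 0.56 (limma, adjusted p = 0.0104). FHL2-B had 1.92 and 1.43 with adjacent gRNAs and 0.178 with IL1RN gRNAs, and this difference of 2.78 ± 1.07 did not pass the test (adjusted p = 0.107), although no other dCas9-VP16(10x) library came near it. It passed with the replicate block (3.47), where the only IL1RN library stands in 1 block and the block enters the change. A pass with both ERBS columns as replicates counts 1 sample as 2. The dCas9-p300(core) ERBS libraries gave 1.84 and 1.07 at FHL2-A and 2.11 and 0.357 at FHL2-B, regions for which they had no gRNA, but these values rest on 7, 6, 8 and 2 reads. Each is above the IL1RN value of its region (0.305 and 0.178). At FHL2-p these libraries gave 0.789 and 1.79, against 1.29 with IL1RN gRNAs. The dCas9-p300(core) changes at the ERBSs are thus not changes over the level of these libraries at regions without a gRNA. FHL2-p stayed between 0.789 and 1.87 in all 7 columns, and none of its 3 tests passed.

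Of the 18 tests of HA at the 6 regions, 6 were called, against 33.3% of the 69 tests over all 23 regions, many of which were likewise gRNA targets (17.4% with the Adjacent pool, 39.1% with dCas9-VP16(10x) ERBS gRNAs and 43.5% with dCas9-p300(core) ERBS gRNAs). Some peak names carry a number, here called the run identifier and taken as a sequencing run. The labels do not say what it stands for, and libraries without it were treated as if they shared a run. With this identifier as a block in limma, 4 of the 18 tests were called, against 13.0% over all regions. They were FHL2-A with adjacent gRNAs (adjusted p = 0.0459, 8.7% of regions called), FHL2-1 and FHL2-2 with dCas9-VP16(10x) ERBS gRNAs (adjusted p = 0.0452 and 0.0363, 26.1%) and FHL2-3 with dCas9-p300(core) ERBS gRNAs (adjusted p = 0.0452, 4.35%). Both dCas9-p300(core) libraries carry the identifier and the IL1RN library does not. The block is thus estimated from the dCas9-VP16(10x) Adjacent pair alone, which had 13 and 7 reads at FHL2-3. The dCas9-p300(core) change there was 5.32 with the block and smaller without it. The pair of dCas9-VP16(10x) ERBS columns agree within sampling noise over the 11 regions without a gRNA target (chi-square 0.503, 10 degrees of freedom) and were counted as 1 sample. At the ERBSs the pair differed. The column without duplicates held 54.3% of the reads of the other at FHL2-1, 49.5% at FHL2-2 and 81.2% at FHL2-3. At FHL2-A, FHL2-B and FHL2-p it held 90.0 to 91.7%, so the levels at the strongest sites depend on the column. The labels do not say which of the 2 ERBS samples the column without duplicates is. Removal of duplicates and a different library therefore cannot be told apart.

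**Figure D2:**
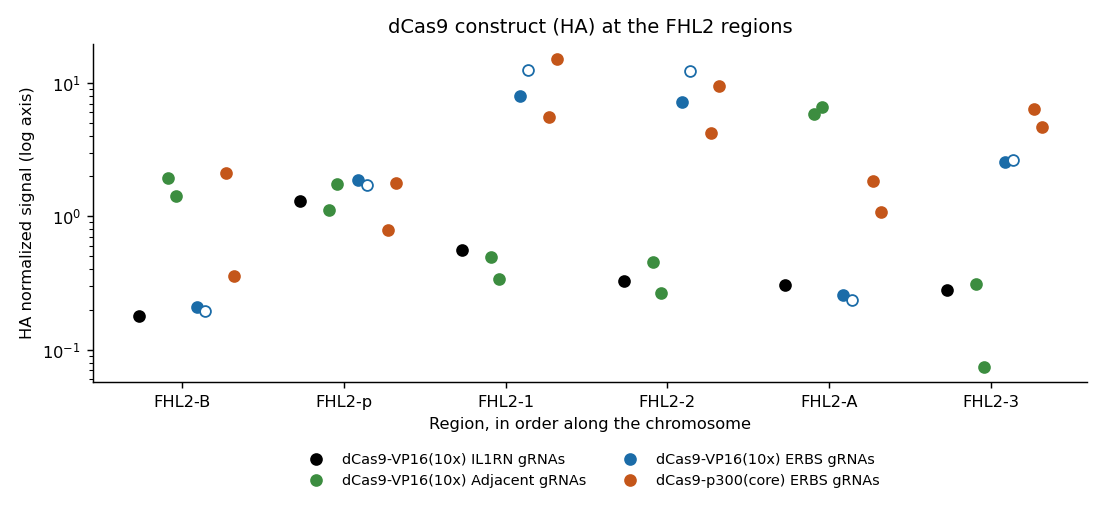
HA normalized signal (log axis) at the 6 regions, ordered by position, with 1 point per column and colors for construct and gRNAs; open circles are the dCas9-VP16(10x) ERBS column that kept duplicates. ERBS gRNAs raise the 3 ERBSs, adjacent gRNAs raise FHL2-A and FHL2-B, and FHL2-p stays between 0.789 and 1.87.

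Peaks in the HA lists fell on the same regions. FHL2-1 and FHL2-2 had a peak in both dCas9-VP16(10x) ERBS lists and in 1 dCas9-p300(core) list, with enrichments over background of 23.5 to 86.8 and of 12.5 to 155. FHL2-3 had a peak in both dCas9-VP16(10x) ERBS lists (25.4 and 43.0) and in neither dCas9-p300(core) list. FHL2-A had one in both Adjacent lists (57.0 and 132), as did FHL2-B (11.5 and 18.2). The list of dCas9-p300(core) ERBS replicate 1, made from the shallowest HA library, had no peak in the window, and neither had the IL1RN list. The 12 summits at these 5 regions lay 3.50 to 189.5 bp from the centre of the 4 gRNA targets (median 78.8 bp). FHL2-p had a peak in 3 of 7 lists (9.35 to 28.7), both dCas9-VP16(10x) ERBS lists and Adjacent replicate 2, none of which had promoter gRNAs. Over all protein-coding genes, the share with an HA peak at a start site ran from 0.0298% to 68.4% across the lists.

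H3K27ac at the ERBSs of FHL2 differed between gRNA pools. By the mean of 2 libraries, FHL2-1 was highest with Pool 2, FHL2-2 with Pool 3 and FHL2-3 with Pool 1, with either construct. Pool 2 at FHL2-1 and Pool 1 at FHL2-3 passed the permutation test below, and Pool 3 at FHL2-2 did not. In none of the 3 was this the pool that the labels list for the site. Libraries of 2 kinds must be kept apart when the values are read. The peak names of 11 of the 20 H3K27ac lists carry a run identifier and those of the other 9 do not, and these kinds of library differed in level. Within a construct and pool that held one of each, the library without it was the higher at the ERBSs and adjacent regions, except at FHL2-1 with dCas9-VP16(10x) Adjacent and at FHL2-3 with dCas9-VP16(10x) Pool 2. At FHL2-p no such order held, and with IL1RN gRNAs the library with the identifier was the higher (1.07 against 0.438 for dCas9-VP16(10x) and 1.1 against 0.808 for dCas9-p300(core)). Values are therefore given with the library that has the identifier first (replicate 1, except for the Adjacent pool).

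At FHL2-1, dCas9-VP16(10x) with Pool 2 gave 1.19 and 2.78 (1.98 ± 1.13, SD, n = 2). The listed Pool 3 gave 0.280 and 0.755, Pool 1 gave 0.163 and 0.746, IL1RN gave 0.0690 and 0.479, and the Adjacent pool gave 0.293 and 0.165. Both Pool 2 libraries were above all 8 other libraries of this construct. With dCas9-p300(core), Pool 2 gave 0.939 and 5.26, Pool 1 gave 0.280 and 1.15, the listed Pool 3 gave 0.244 and 0.990, IL1RN gave 0.146 and 0.775, and the Adjacent pool, whose libraries both carry the identifier, gave 0.0905 and 0.154. Each Pool 2 library was the highest of its kind, but the lower of them was under the higher libraries of Pool 1 and Pool 3. Below Pool 2, the ranges of Pool 1, Pool 3 and IL1RN overlapped with both constructs, so their order is not firm.

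Against IL1RN libraries of the same kind, Pool 2 raised FHL2-1 17.2-fold (95% counting interval 9.37 to 35) and 5.80-fold (4.76 to 7.13) with dCas9-VP16(10x), and 6.45-fold (3.90 to 11.1) and 6.78-fold (4.94 to 9.51) with dCas9-p300(core). The listed Pool 3 gave ratios of 1.28 (0.848 to 1.93) to 4.05 (1.33 to 11.4). The highest of these rests on 7 reads in the shallowest H3K27ac library, with 348 reads in the 23 regions. Such intervals cover counting error only, take reads as independent and leave out the spread between libraries.

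At FHL2-2, dCas9-VP16(10x) with Pool 3 gave 0.0799 and 1.2, and dCas9-p300(core) with Pool 3 gave 0.150 and 2.72. The listed Pool 1 gave 0.0530 and 0.222 with dCas9-VP16(10x) and 0.103 and 0.485 with dCas9-p300(core), and IL1RN gave 0.0314 and 0.197, and 0.0347 and 0.354. Pool 2 gave 0.106 and 0.353, and 0.0967 and 0.359. The Adjacent pool gave 0.0684 and 0.165 with dCas9-VP16(10x) and 0.0426 and 0.0542 with dCas9-p300(core). Pool 3 held the top library of its kind in 3 of 4 cases. The exception was dCas9-VP16(10x) replicate 1, where the value rests on 2 reads in the shallowest H3K27ac library (348 reads in the 23 regions) and where Pool 2 was higher. Against IL1RN, the 4 ratios of Pool 3 were 2.55 (0.242 to 15.6), 6.09 (4.45 to 8.5), 4.32 (1.25 to 16.8) and 7.68 (4.85 to 12.8), and those of the listed Pool 1 were 1.13 to 2.97.

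FHL2-3 had the lowest IL1RN signal of the ERBSs, and Pool 1 stood clear of the other pools. With Pool 1, dCas9-VP16(10x) gave 0.411 and 1.22 and dCas9-p300(core) gave 0.589 and 2.05, above all 8 other libraries of the construct in each case. The other dCas9-VP16(10x) libraries lay between 0 and 0.125, with 0.0188 and 0.111 for IL1RN, 0.0596 and 0.0539 for the listed Pool 2, 0 and 0.0677 for Pool 3, and 0.0191 and 0.125 for the Adjacent pool. The value of 0 is from the shallowest H3K27ac library. The other dCas9-p300(core) libraries lay between 0.0160 and 0.342, with 0.0277 and 0.253 for IL1RN, 0.0829 and 0.274 for the listed Pool 2, 0.319 and 0.342 for Pool 3, and 0.0160 and 0.0271 for the Adjacent pool. Against IL1RN of the same kind, Pool 1 was 21.8-fold (7.24 to 108) and 11.0-fold (7.42 to 16.9) higher with dCas9-VP16(10x), and 21.2-fold (7.68 to 81.7) and 8.11-fold (4.67 to 15.1) higher with dCas9-p300(core). The ratios of replicate 1 rest on 3 and 4 control reads. The deposited column of dCas9-VP16(10x) Pool 1 replicate 2 has a p where the title of the sample has a v, and the column was taken as that sample because its number and pool match no other title.

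**Figure D3:**
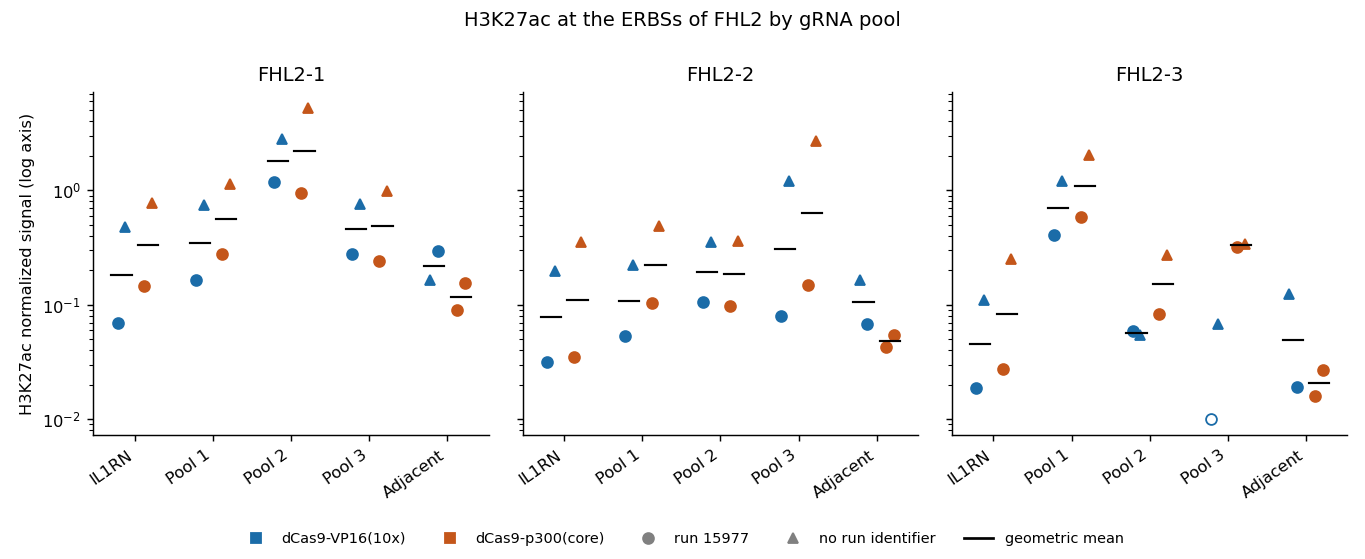
H3K27ac normalized signal (log axis) of the 20 libraries at each ERBS by gRNA pool, colored by construct; circles are libraries whose peak names carry a run identifier, triangles those without, open symbols are values of 0 drawn at the axis floor, and bars are geometric means of 2 libraries (left out where a value is 0). Pool 2 is highest at FHL2-1, Pool 3 at FHL2-2 and Pool 1 at FHL2-3, and triangles lie above circles in most pools.

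In limma without a term for the kind of library, none of the 48 tests of a pool against IL1RN at the 6 regions was called, and 0.0% of the 184 tests over all regions were. At an unadjusted p under 0.05 there were 4, Pool 2 at FHL2-1 (3.27 ± 1.24 with dCas9-VP16(10x), adjusted p = 0.219, and 2.71 ± 1.24 with dCas9-p300(core), adjusted p = 0.318) and Pool 1 at FHL2-3 (3.79 ± 1.36, adjusted p = 0.207, and 3.61 ± 1.36, adjusted p = 0.219). These sizes depended on single libraries. Leaving out 1 library moved Pool 2 at FHL2-1 to between 1.91 (without IL1RN replicate 1) and 4.64 (without IL1RN replicate 2) for dCas9-VP16(10x), and to between 1.47 (without Pool 2 replicate 2) and 3.94 (without Pool 2 replicate 1) for dCas9-p300(core). Pool 1 at FHL2-3 ranged from 2.63 to 4.95 for dCas9-VP16(10x) and from 2.1 to 5.11 for dCas9-p300(core), with the lowest value without IL1RN replicate 1 and the highest without IL1RN replicate 2 of the construct. Pool 3 at FHL2-2 ranged from -0.0074 to 3.83 for dCas9-VP16(10x) and from 0.386 to 4.53 for dCas9-p300(core), lowest without its replicate 2 and highest without its replicate 1. With the run identifier as a block, 7 of 48 were called, against 15.8% of all tests (8.7% to 26.1% within a construct and pool). They were Pool 2 at FHL2-1 (SE 0.70, adjusted p = 0.00215 and 0.00703, where 21.7% and 13.0% of regions were called), Pool 1 at FHL2-3 (SE 0.78, adjusted p = 0.00171 and 0.00215, 13.0% and 17.4%), Pool 3 at FHL2-2 (1.91 ± 0.68, adjusted p = 0.0486, and 2.46 ± 0.68, adjusted p = 0.0102, 13.0% each), and the Adjacent pool at FHL2-A with dCas9-VP16(10x). The listed pools were not called in either fit. Their log2 changes, dCas9-VP16(10x) first and dCas9-p300(core) second, were 1.30 and 0.54 at FHL2-1, 0.43 and 0.96 at FHL2-2, and 0.24 and 0.78 at FHL2-3.

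An exact permutation test asked, for each pool, whether its 4 libraries differed from the other 16 within their constructs. It exchanged libraries across the kinds with and without a run identifier, so it takes no account of the run. Pool 1 was higher by 3.75 at FHL2-3 on the log2 scale (exact permutation p = 0.000494, the smallest that the 2025 arrangements allow, adjusted p = 0.00909). Pool 2 was higher by 2.71 at FHL2-1 (exact permutation p = 0.00148, adjusted p = 0.0151). These are 2 calls among 24 tests at the locus, against 10.9% of the 92 tests over all regions (13.0% each for Pools 1 and 2, 8.7% each for Pool 3 and the Adjacent pool). Pool 3 at FHL2-2 was higher by 1.87 and did not pass (exact permutation p = 0.0410, adjusted p = 0.209). The call at FHL2-1 was lost without dCas9-VP16(10x) Pool 2 replicate 1, without its replicate 2 or without dCas9-p300(core) Pool 2 replicate 2 (adjusted p up to 0.103), and that at FHL2-3 without dCas9-VP16(10x) Pool 1 replicate 2 (adjusted p = 0.0909).

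The regions outside the locus whose H3K27ac was most like that of the ERBSs, by Spearman's rho over the 20 libraries, were CISH-2 for FHL2-1 (0.768), CISH-3 for FHL2-2 (0.687) and CISH-1 for FHL2-3 (0.946). The labels list these in Pool 2, Pool 3 and Pool 1. The next were MMP17-2 (0.710), HES2-2 (0.678) and MMP17-2 (0.818), listed in Pools 1, 3 and 1. The libraries share their depth and run kind across regions, so these values describe likeness only. On the same measure the adjacent regions were most like CISH-B (0.847 for FHL2-A and 0.850 for FHL2-B), and FHL2-p was most like the CISH promoter (0.788). For RNAPII the nearest were MMP17-A for FHL2-1 (0.735) and FHL2-A (0.850), the IL1RN promoter for FHL2-2 (0.789), CISH-A for FHL2-3 (0.738), CISH-B for FHL2-B (0.641) and the CISH promoter for FHL2-p (0.842).

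The adjacent regions had low H3K27ac that rose with dCas9-VP16(10x) and the Adjacent pool in the blocked fit at FHL2-A. FHL2-A had 0.145 and 0.240 in these libraries, above all 8 others of the construct (0.00883 to 0.135), a log2 change of 2.23 ± 0.71 with the run block (limma, adjusted p = 0.0261) and 2.23 ± 1.23 without it (adjusted p = 0.480). Without the block the change was 0.954 when IL1RN replicate 1 was left out and 3.51 when IL1RN replicate 2 was. FHL2-B had 0.104 and 0.125, also above all 8 others (0 to 0.0938), and its change of 1.52 ± 1.25 was not called. Against IL1RN of the same kind, the ratios were 11.6 (3.04 to 97.9) and 2.54 (1.52 to 4.38) at FHL2-A and 5.52 (1.75 to 28.0) and 1.79 (0.929 to 3.53) at FHL2-B. The first ratio of each rests on 2 and 3 control reads.

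With dCas9-p300(core) and the Adjacent pool, FHL2-A had 0.0852 and 0.163 and FHL2-B had 0.17 and 0.244, both within the range of the other pools. Both libraries carry the run identifier, and against the IL1RN library that carries it too the ratios were 3.07 (0.991 to 12.6) and 5.86 (1.93 to 23.8) at FHL2-A and 2.46 (1.18 to 5.60) and 3.52 (1.65 to 8.14) at FHL2-B. FHL2-A and FHL2-B with dCas9-p300(core) were also high with Pool 3, which the labels do not give gRNAs for them, at 0.206 and 0.378 and at 0.206 and 0.468.

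**Figure D4:**
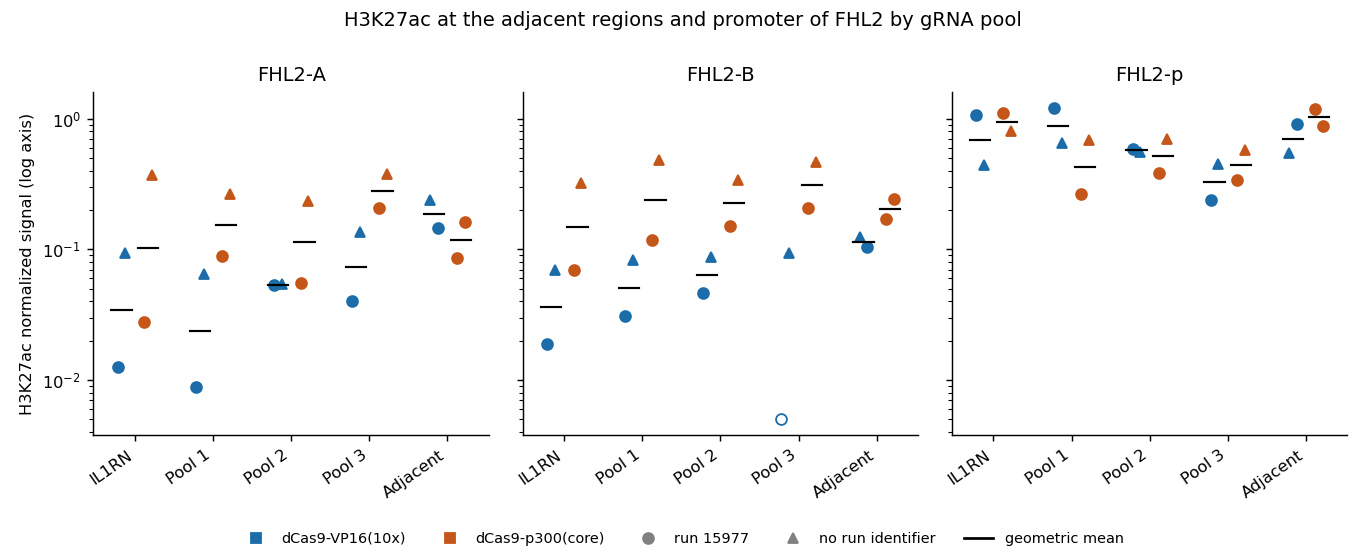
H3K27ac normalized signal (log axis) of the 20 libraries at the adjacent regions and the promoter by gRNA pool, with colors, symbols and bars for construct, run identifier and geometric mean, and values of 0 as open symbols at the axis floor. The Adjacent pool tops the dCas9-VP16(10x) libraries at FHL2-A and FHL2-B, while FHL2-p lies between 0.240 and 1.21.

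The promoter had a nonzero H3K27ac signal in every library, the lowest resting on 6 reads, and no pool was called there. FHL2-p ranged from 0.240 to 1.21 (median 0.618), a 5.05-fold span, against 76.1-fold for FHL2-1 and 86.6-fold for FHL2-2. The log2 changes against IL1RN were 0.04 and 0.37 for dCas9-VP16(10x) Adjacent and Pool 1 and 0.12 for dCas9-p300(core) Adjacent, and the other 5 were between -0.25 and -1.14 (SE 0.76 each). Pool 3, the lowest, differed from the other libraries by -0.85 (exact permutation p = 0.0237, adjusted p = 0.148). At the promoter, dCas9-p300(core) Pool 1, Pool 2 and Pool 3 replicate 1 had 18, 28 and 18 reads against 159 in the IL1RN library, ratios of 0.240, 0.351 and 0.306, and these libraries were shallow (605 to 905 reads in the 23 regions against 1753). The values are already divided by depth, and the part of depth in these ratios was not tested.

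H3K27ac peaks at the ERBSs, called from the same libraries, fell mostly in lists of the pool with the highest signal, but not in all of them. FHL2-1 had a peak in 4 of 20 lists: both dCas9-VP16(10x) Pool 2 lists, 1318 and 2188 bp wide with enrichments of 13.6 and 28.3, dCas9-p300(core) Pool 2 replicate 2 (12.2) and dCas9-VP16(10x) Adjacent replicate 2 (10.0, 287 bp wide), which has no gRNA there. FHL2-2 had a peak in Pool 3 replicate 2 of each construct (13.5 and 7.95). FHL2-3 had one in both dCas9-VP16(10x) Pool 1 lists (7.94 and 8.41) and in neither dCas9-p300(core) Pool 1 list. FHL2-A had a peak in 1 list, dCas9-VP16(10x) Adjacent replicate 2 (8.51), and FHL2-B in 0 of 20. None of the IL1RN lists had a peak at an ERBS or adjacent region. The promoter had a peak in 10 of 20 lists (13.3 to 36.8), and the 6 dCas9-p300(core) Pool 1 to Pool 3 lists, which are among the shortest, had none there. The 11 H3K27ac peaks away from the promoter had summits 88.5 to 493.5 bp from the centre of the gRNA targets (median 252.5 bp, against 78.8 bp for HA). The ranges overlap, and the difference was not tested. The sets are also unlike, since the 11 hold the dCas9-VP16(10x) Adjacent replicate 2 peak at FHL2-1 (176.5 bp) and more than 1 peak from some lists.

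RNAPII was seen chiefly at the promoter. FHL2-p had a peak in 20 of 20 lists (9.72 to 55.7) and a signal of 0.278 to 1.09 (median 0.509), while the medians of the other regions over the 20 libraries were 0.106 at FHL2-1, 0.0746 at FHL2-B, 0.0518 at FHL2-2, 0.0434 at FHL2-3 and 0.0308 at FHL2-A. These levels compare regions of the same length. No pool was called at FHL2-p, where the permutation differences were -0.30 to 0.23.

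At FHL2-3, dCas9-VP16(10x) with Pool 1 had more RNAPII than with any other pool. The 2 libraries gave 0.223 and 0.164, above all 8 others of the construct (0.0379 to 0.0993, with 0.0557 and 0.0604 for IL1RN and 0.0993 and 0.0448 for the listed Pool 2). With dCas9-p300(core), Pool 1 gave 0.0410 and 0.0641, against 0.0404 and 0.0276 for IL1RN. The limma change was 1.65 ± 0.70 for dCas9-VP16(10x) (unadjusted p = 0.0328, adjusted p = 0.999) and 0.56 ± 0.57 for dCas9-p300(core). Pool 1 against the other pools over both constructs differed by 1.23 (exact permutation p = 0.00185, adjusted p = 0.0852). The adjusted p ranged from 0.0355 to 0.297 over 24 alternatives and was under 0.05 in 3 of them, with the IL1RN pair as 2 libraries, without dCas9-VP16(10x) Pool 2 replicate 1 and without dCas9-p300(core) Pool 3 replicate 1.

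At FHL2-B, dCas9-VP16(10x) with the Adjacent pool gave 0.331 and 0.406, above all 8 others of the construct (0.0644 to 0.125). These were 4.62 to 6.28 times the IL1RN libraries with the same run identifier. With dCas9-p300(core), the Adjacent pool gave 0.0662 and 0.101, within the range of IL1RN (0.0197 and 0.137). The limma change was 2.36 ± 1.16 for dCas9-VP16(10x) (unadjusted p = 0.0593, adjusted p = 0.999), and the exact permutation difference of 1.51 over both constructs did not pass (p = 0.00741, adjusted p = 0.17). FHL2-B overlaps transcribed sequence of FHL2 and FHL2-3 does not.

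At FHL2-1, Pool 2 had the highest mean with both constructs, at 0.303 and 0.157 for dCas9-VP16(10x) against 0.191 and 0.186 for IL1RN, and at 0.124 and 0.102 for dCas9-p300(core) against 0.0566 and 0.0434. The exact permutation difference was 0.82 (p = 0.0716, adjusted p = 0.515). FHL2-2 gave 0.223 and 0.0252 with dCas9-VP16(10x) Pool 3, a range that holds all other values of the construct, and FHL2-A gave 0.106 and 0.0871 with dCas9-VP16(10x) and the Adjacent pool but 0.167 in 1 Pool 2 library. With dCas9-p300(core) Pool 1, FHL2-A gave 0.0451 and 0.0466, above all 8 others of the construct (0.00395 to 0.0368). These values rest on 11 and 8 reads. By the labels this pool has no gRNA there, so such an order also arose away from gRNA targets. In all, 0 of 48 limma tests of RNAPII at the locus and 0.0% of the 184 over all regions were called, with 1 at the locus at an unadjusted p under 0.05. With the run block 0 were called and 3 had an unadjusted p under 0.05. The exact permutation test called 0 of 24, against 0.0% of 92, with the IL1RN pair of dCas9-VP16(10x) counted as 1 sample. With that pair as 2 libraries, Pool 1 at FHL2-3 was called.

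**Figure D5:**
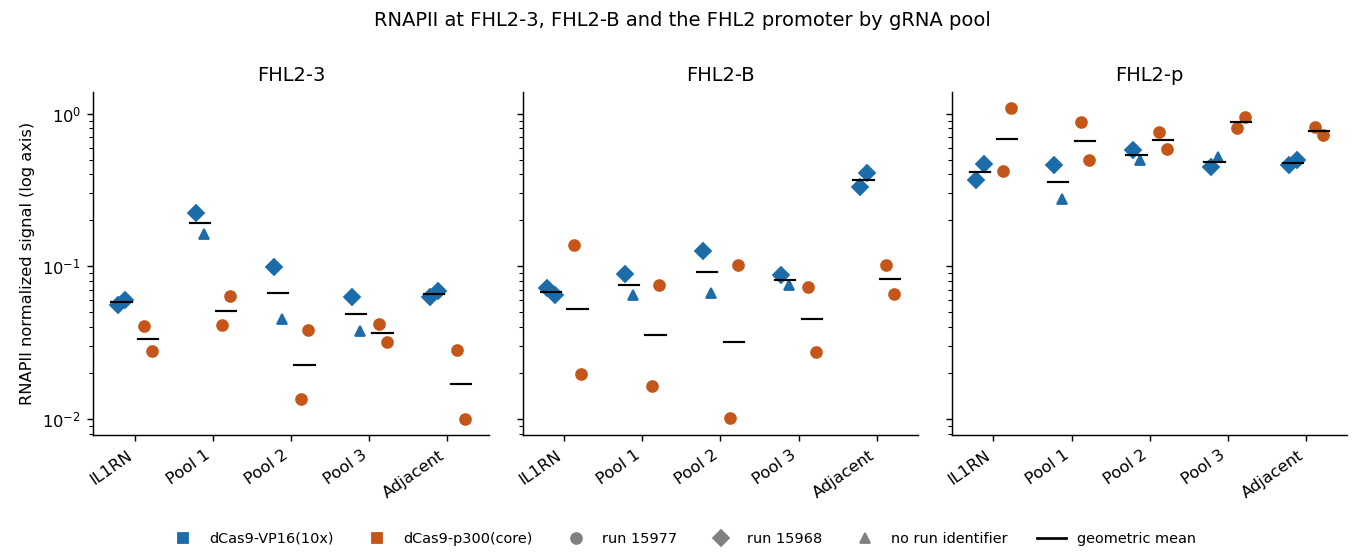
RNAPII normalized signal (log axis) of the 20 libraries at FHL2-3, FHL2-B and FHL2-p by gRNA pool, with colors for construct, circles and diamonds for the 2 run identifiers in peak names, triangles for libraries without one, and bars for geometric means. dCas9-VP16(10x) stands apart with Pool 1 at FHL2-3 (0.164 and 0.223) and with the Adjacent pool at FHL2-B (0.331 and 0.406).

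RNAPII peaks away from the promoter were few. FHL2-B had one in both dCas9-VP16(10x) Adjacent lists (9.27 and 8.44) and FHL2-3 in dCas9-VP16(10x) Pool 1 replicate 1 (7.41), and the summits of these 3 peaks lay 11.0 to 83.0 bp from the centre of the gRNA targets. FHL2-1, FHL2-2 and FHL2-A had 0 of 20.

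The constructs were compared by the difference of their changes against IL1RN, over the 24 pairs of region and pool for each antibody. For H3K27ac, 0 of 24 were called (limma, smallest adjusted p = 0.987; 0 at an unadjusted p under 0.05; 0.0% of 92 over all regions). For RNAPII, 0 of 24 were called as well (smallest adjusted p = 0.992, with 0 at an unadjusted p under 0.05 and 0.0% of 92 over all regions). The intervals were wide. For H3K27ac, dCas9-VP16(10x) minus dCas9-p300(core) was 0.57 for Pool 2 at FHL2-1 (95% interval -3.15 to 4.29), -0.55 for Pool 3 at FHL2-2 (-5.25 to 4.16), 0.18 for Pool 1 at FHL2-3 (-3.90 to 4.27) and 2.08 for the Adjacent pool at FHL2-A (-1.62 to 5.77). For RNAPII it was 1.09 for Pool 1 at FHL2-3 (-0.84 to 3.02) and 1.79 for the Adjacent pool at FHL2-B (-1.4 to 4.98). Differences of several-fold in either direction lie inside these intervals.

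Of the FHL2 paralogs, which share the LIM-domain structure, FHL3 had promoter peaks of H3K27ac in 11 and of RNAPII in 13 of 20 lists, FHL1 in 7 and 4, and FHL5 in 0 and 0. FHL2 itself had them in 10 and 20. A list had an H3K27ac peak at the start sites of 4.64 to 65.1% (median 50.1%) and an RNAPII peak at those of 48.2 to 69.3% (median 61.6%) of 20149 protein-coding genes.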

How the data were processed

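The authors aligned reads to hg19 with Bowtie (1.1.2 per the processing notes). They discarded duplicates (SAMtools), except in the HA column named above, and took read coverage of 2000-bp regions from bedtools. The deposited normalized signal was divided by total depth, then by the average depth in overlapping peaks of the antibody (H3K27ac, RNAPII) or by control promoters (HA). The peak lists deposited by the authors give, per library and without pooling, each peak's −log10 q-value and fold enrichment over background. The notes name MACS2 2.1.0.20140616. Peaks were counted at a region when they shared at least 1 bp.

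Tests used log2(signal + pseudocount), where the pseudocount was the lowest nonzero signal (0.00395 in RNAPII, 0.00415 in H3K27ac and 0.0742 in HA data), so folds of low regions are understated. For each antibody, all 23 regions entered one limma model (version 3.58.1, R 4.3.3) that had 1 mean per construct and pool, and pools were compared with IL1RN (69 tests for HA, 184 each for H3K27ac and RNAPII) with Benjamini-Hochberg adjustment. A call is an adjusted p under 0.05 with a higher signal. Residual degrees of freedom were 2, 10 and 9. The HA groups with 1 sample are assumed to vary like the others. The exact permutation tests were two-sided and stratified by construct, with adjustment over 92 tests per antibody, and reach no p below 0.000494 for H3K27ac and 0.000617 for RNAPII. Both were also run on simulated data without a shift between kinds of library, and for the permutation test the spread was set rather than taken from the libraries. Those runs therefore do not show how the tests behave under that shift. Python 3.11.15, scipy 1.17.1 and pandas 2.3.3 were used. Every value was a whole multiple of a step of its library (tolerance 0.02 of a step), which was read as 1 read. Counting intervals are exact for a ratio of reads.

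In the RNAPII data, both IL1RN libraries of dCas9-VP16(10x) agree within sampling noise over the 23 regions (chi-square 16.6, 22 degrees of freedom, p = 0.787). They were counted as 1 sample, although their titles call them replicates and such agreement does not show that they are the same sample. This was chosen after the data were seen, as were the ratios within a run identifier. Of 23 replicate pairs, 21 differed beyond counting error. gRNA sequences came from the study's supplement and were searched in the hg19 primary chromosomes, and annotation was GENCODE lifted to hg19. The regions, pools, gene lists and tests were chosen with earlier results of these data known. All 6 regions are named with every pool. Of peaks outside the regions, sites in at least 50% of the libraries of an antibody, or in both libraries of a group and in no IL1RN library, were to be named, and none met this. For each region the 2 most like regions outside the locus were found by Spearman's rho, and the nearest is given (both for the ERBSs and H3K27ac). PECAM1, an endothelial marker, was not analysed here.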

Additional observations from a re-analysis of the deposited data

Results flagged for a closer look

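An HA peak outside the 6 regions appeared 127.5 kb upstream of the FHL2 start site, with an 11.7-fold enrichment over background in dCas9-VP16(10x) ERBS replicate 2 and in none of the other 6 HA lists, the IL1RN list included. It is data that the comparisons above do not use, and no gRNA of the locus matches there.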

How the results depend on the processing

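Over all alternatives, 155 counts of calls stayed within 1.5 times and 462 values of single regions kept their sign and side of the threshold, while 10 counts moved, 23 values gained and 6 lost their call and 8 changed sign. HA calls (6) were 6 to 10 with 1 library left out, the 10 without dCas9-p300(core) ERBS replicate 2, and 4 with the sequencing run block. The single HA libraries of a group could not be left out. H3K27ac calls (0) rose to 7 with the sequencing run as a block, and were 0 to 0 with 1 library left out. Same-numbered H3K27ac libraries deviated together in 33 of 45 pairs of groups (r over 0.1), RNAPII libraries in 17 of 45 and HA libraries in 1 of 1, so the numbers do not pair the samples throughout, and the replicate block gave 4 H3K27ac calls, 9 HA calls and 0 RNAPII calls. H3K27ac permutation calls (2) were 1 to 2 with 1 library left out. RNAPII permutation calls (0) were 0 to 1, and 1 with the IL1RN pair as 2 libraries, chosen after the data were seen. The sign changed for H3K27ac at FHL2-2 with dCas9-VP16(10x) Pool 3 (-0.0074 without its replicate 2, range with 1 library left out -0.0074 to 3.83), at FHL2-A with dCas9-p300(core) Adjacent (-0.0711 with a pseudocount 10 times larger, -0.291 without its replicate 2, -1.62 without IL1RN replicate 1, range -1.62 to 1.94), and for the RNAPII permutation difference of Pool 3 at FHL2-2 (-0.0598, -0.234, -0.0825 and -0.414 without dCas9-p300(core) IL1RN replicate 2, dCas9-p300(core) Pool 3 replicate 1, dCas9-VP16(10x) Pool 1 replicate 2 and dCas9-VP16(10x) Pool 3 replicate 1, range -0.414 to 0.62). None of these was called, and the cause was not tested. Of 57 cases of a peak in a region, 50 had a −log10 q of at least 20, and 57 had the summit in the region. The planned count model on recovered reads was not run. With 2 libraries per group and as few as 348 reads in the 23 regions, modest changes could not be detected.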

Other observations

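RNAPII peaks also lay inside the gene, at -35.6 to -33.9 kb from the start site (negative inside the gene), towards its 3′ end, where a long noncoding RNA, ENSG00000238273, overlaps FHL2 on the other strand. These are 3 sites, chosen here after their values were seen, with a peak in 5, 1 and 3 of 20 lists, of which 2, 0 and 2 were IL1RN lists. The first site begins at position 105979549, beside the annotated start of the noncoding RNA at 105979495. RNAPII peaks lay within 1000 bp of a start site of that RNA in 5 of 20 lists. C2orf49, the protein-coding gene that lies next to FHL2 in the window, had a promoter peak of RNAPII in 20 and of H3K27ac in 13 of 20 lists.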
